A study of Mus musculus with 36 samples.

Results

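The genes described here belong to the integrated stress response and to serine-driven one-carbon metabolism. They were chosen by name and are 10 of the 56748 genes in the count table: Atf4, Atf5, Ddit3, Trib3, Chac1, Asns, Psat1, Phgdh, Shmt2 and Mthfd2. All 10 were found under these symbols. A second annotated Ddit3 gene held 0 counts and was not used.

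RNA-seq libraries were made from splenic CD4+ T cells of 2 mutant mouse lines, each with its wild-type (WT) littermates, all young adults. In the HP1a line, the gene Cbx5, which encodes the heterochromatin protein HP1α, was deleted in the germ line after crossing a floxed allele to a CMV-cre transgene, so every cell of the knock-out (KO) mice lacked it. In the HP1g line, Cbx3, which encodes HP1γ, was floxed and deleted by Cd4-cre, that is in T cells, and its controls carried the floxed alleles without the transgene. Each genotype was measured in 3 conditions. Naive cells were CD4+ T cells with no or low CD44, isolated from the mice by magnetic depletion. Tconv were the same kind of cells recovered 3 weeks after injection into lethally irradiated C57BL/6J or congenic CD45.1+ B6 hosts, which had been given a mix of C57BL/6J and semi-allogeneic B6D2F1 marrow, and sorted for Vβ6, a T cell receptor chain that recognises the semi-allogeneic cells. Tconv exposed to Treg came from hosts that were also given expanded WT regulatory T cells (Treg). Naive cells and Tconv differed in how they were isolated as well as in their history, and these cannot be told apart.

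Each of the 12 groups had 3 libraries. Replicate 3 of HP1g KO Tconv exposed to Treg was left out, so that this group kept 2 libraries and 35 remained in all. Total counts ranged from 37029519 to 63042245 per library. Cbx5 ranged from 18.6 to 61.9 counts relative to the library total (CPM) in the 9 HP1a WT libraries and from 9.25 to 19.7 CPM in the 9 KO libraries. Cbx3 ranged from 79.5 to 200.2 CPM in 9 HP1g WT libraries and from 59.4 to 80.8 CPM in 8 KO libraries. Cd3e and Cd4 were at 632.2 CPM or more in all 35. Cd44, which marks T cells that have met antigen, was at 36.7 to 67.1 CPM in naive libraries and 278 to 417 CPM in Tconv. The summed level of 8 myeloid markers was 6.01 to 12.9 CPM in naive and 6.62 to 491 CPM in the 23 libraries from grafted hosts, and that of 4 erythroid markers 5.86 to 102 and 1.04 to 4170 CPM. The highest sums of 5 B cell markers and 4 CD8 or NK markers were 8.36 and 30.4 CPM.

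The integrated stress response is a pathway in which kinases that sense amino acid shortage, unfolded proteins in the endoplasmic reticulum (ER), haem shortage or viral RNA phosphorylate the initiation factor eIF2α. This slows translation in general but favours that of ATF4, a transcription factor that switches on genes for amino acid synthesis, amino acid transport and tRNA charging. Because ATF4 is regulated mainly by translation, its mRNA level does not measure the activity of the pathway. Proliferating T cells draw on the serine and one-carbon enzymes, several of them ATF4 targets, to supply one-carbon units for nucleotide synthesis.

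ATF4 and its partners of the C/EBP family bind a composite element whose core is TGATGNAAN, where N is any base. It was searched on both strands of 300-base RefSeq promoter windows running from 250 bases before to 50 bases after a start site, taken from a table on an earlier mouse build and located on GRCm39 by unique sequence match. The 10 genes had 12 windows, and 3 genes held 1 match each, against 1299 of all 32851 windows (3.95%). The 3 stretches are shown because they are the matches among the 10 genes, Asns and Trib3 being also the genes called below. Capitals mark the 9 bases of the match, and each stretch is written 5′ to 3′ on the strand of its gene.
Asns: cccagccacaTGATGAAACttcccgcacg
Trib3: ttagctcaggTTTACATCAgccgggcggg
Chac1: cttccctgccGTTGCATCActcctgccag

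The Asns stretch lies at chr6:7693214-7693242 (GRCm39, minus strand), with its match starting 23 bases before the RefSeq start. That of Trib3 lies at chr2:152185949-152185977 (minus strand), with the match on the opposite strand and starting 13 bases after the start. In Chac1 it lies at chr2:119181519-119181547 (plus strand), again with the match on the opposite strand, starting 194 bases before the start. All 3 fall within exons annotated as untranslated in at least 1 GENCODE transcript of the same gene. None of the 9 windows of the other 7 genes held these letters. The stricter form TGATGNAAT, in 0.965% of all windows, was in none of the 12. A match is a description of the sequence and was not tested for binding.

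Levels across genes are given per kilobase (kb) of the canonical transcript, as the median over the 35 libraries. By this measure Atf4 was highest at 131 CPM per kb, followed by Phgdh at 52.6, Mthfd2 at 36.9, Shmt2 at 27.0, Ddit3 at 15.6 and Psat1 at 12.5 CPM per kb. Trib3 (2.38), Asns (1.19), Atf5 (0.158) and Chac1 (0.015 CPM per kb) formed the lower end. The canonical Asns transcript has 4901 bases and several shorter ones are annotated, so its level per length is uncertain. All other values are CPM scaled by the TMM method, which compare a gene between libraries but not between genes.

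The first comparison asked how these genes differ between naive cells and Tconv responding in the grafted host. Asns, which makes asparagine from aspartate, was close to absent in naive cells and rose in Tconv of every genotype, by 34.4-fold to 81.3-fold. Trib3, a pseudokinase that is induced by ATF4 and CHOP and restrains them, moved the other way and fell to between 0.251 and 0.432 of its naive level. The transcription factor genes Atf4 and Ddit3 were not called in any genotype. The serine and one-carbon enzymes were already well expressed in naive cells, and their log2 fold changes lay between -0.49 and 1.07, none of them called.

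A gene was called where edgeR's quasi-likelihood test gave a Benjamini-Hochberg adjusted p under 0.05 over all genes tested and the absolute log2 fold change was above 1. In this comparison 9 of the 10 genes passed the filter on low counts, and Asns and Trib3 were called in all 4 genotypes, which is 8 of 36 tests. Of all genes tested, 23.1% were called in HP1a WT, 19.7% in HP1a KO, 23.5% in HP1g WT and 23.1% in HP1g KO. By adjusted p alone 15 of the 36 tests passed, against 45.7%, 40.6%, 31.4% and 41.1% of all genes. Asns passed the filter through the Tconv libraries alone, where it is high, so it could not have been tested and found unchanged. Whether libraries of 1 group came from separate animals is not stated per sample, and the p-values measure the spread between these libraries, which may in part be technical.

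**Figure D1:**
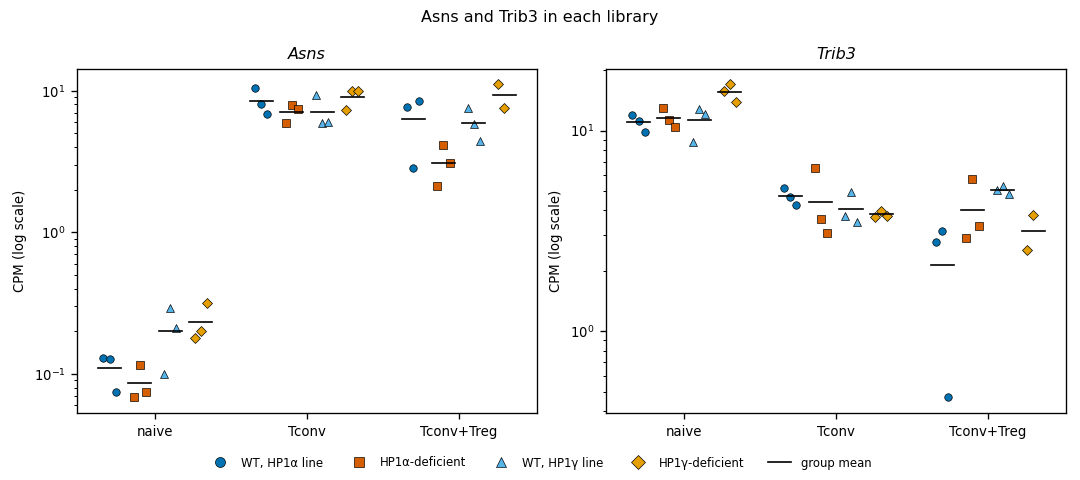
Level of Asns (left) and Trib3 (right) in CPM on a log axis in each of the 35 libraries, by condition along the x axis, with colour and shape for line and genotype and a bar for the group mean. All 23 grafted libraries lie above all 12 naive libraries for Asns (2.13 CPM and more against 0.316 CPM and less) and below them for Trib3 (6.49 CPM and less against 8.82 CPM and more).

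Asns in naive HP1a WT cells was at 0.129, 0.128 and 0.0743 CPM, or 7, 7 and 5 counts. In HP1a WT Tconv it was at 10.5, 8.01 and 6.82 CPM, or 384, 380 and 254 counts. The lowest Tconv library was thus far above the highest naive library, and the log2 fold change was 6.25 (SE 0.36, adjusted p = 4.63e-06). HP1a KO cells went from 0.0682, 0.116 and 0.0746 CPM to 5.91, 7.87 and 7.49 CPM, a log2 fold change of 6.35 (SE 0.33, adjusted p = 1.78e-05). HP1g WT cells went from 0.0991, 0.293 and 0.210 CPM to 9.35, 5.87 and 6.02 CPM, a log2 fold change of 5.10 (SE 0.44, adjusted p = 0.000121). In no genotype did naive cells and Tconv overlap. HP1g KO cells went from 0.179, 0.200 and 0.316 CPM to 7.26, 9.89 and 9.91 CPM, a log2 fold change of 5.30 (SE 0.33, adjusted p = 6.71e-06). Naive libraries held only 3 to 14 Asns counts each, so the counting error of the naive level, and with it of the fold, is wide. The log2 fold change of Asns was above that of 96.1% to 97.9% of the genes tested in the 4 genotypes. As Asns entered the test only through the Tconv libraries, where it is high, this rank is a description and no further evidence.

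Genes of other cells and of division were read beside Asns. In HP1a WT Tconv the myeloid sum was 6.62 to 7.59 CPM and the erythroid sum 1.04 to 2.52 CPM, against 9.31 to 12.2 and 22.8 to 60.0 CPM in naive HP1a WT cells, and Asns there was at 6.82 to 10.5 CPM. In HP1a KO Tconv the sums were 12.1 to 145 and 17.03 to 489.7 CPM. They were 22.4 to 318.5 and 48.8 to 3216 CPM in HP1g WT Tconv. In HP1g KO Tconv they were 36.4 to 94.9 and 101.2 to 2224 CPM. The part of such cells in the Asns levels of these genotypes was not tested. The division gene Mki67 was at 0.951 to 1.81 CPM in naive libraries and 48.7 to 223 CPM in Tconv, and its part in the Asns difference was not tested. As the RNA comes from bulk samples, fewer cells with a transcript and less of it per cell cannot be told apart for any gene here.

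Trib3 was at 11.9, 11.1 and 9.89 CPM in naive HP1a WT cells and at 5.20, 4.68 and 4.27 CPM in HP1a WT Tconv, a fall of 1.21 on the log2 scale, or log2 fold change -1.21 (SE 0.19, adjusted p = 0.00102). HP1a KO cells went from 13.02, 11.3 and 10.5 CPM to 6.49, 3.65 and 3.08 CPM (log2 fold change -1.38, SE 0.30, adjusted p = 0.00876). HP1g WT cells went from 8.82, 12.8 and 12.2 CPM to 3.74, 4.97 and 3.51 CPM (log2 fold change -1.47, SE 0.25, adjusted p = 0.00312). Every Tconv library was below every naive library of its genotype. The lowest ratio was in HP1g KO cells, which went from 15.7, 17.0 and 13.9 CPM to 3.73, 3.99 and 3.73 CPM (log2 fold change -1.997, SE 0.17, adjusted p = 3.55e-05). In HP1a WT the call was lost when all libraries of the line shared 1 fit (log2 fold change -1.23, adjusted p = 0.0531).

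Atf4 itself, the central factor of the pathway, had log2 fold changes between -0.34 and 0.01 from naive cells to Tconv, with 95% intervals reaching from -1.02 to 1.03 over the 4 genotypes (lowest adjusted p = 0.133). Its naive level was uneven in the HP1a line. Replicate 1 was at 353 CPM in WT and 338 CPM in KO, whereas replicates 2 and 3 were at 129.9 and 130.2 CPM in WT and at 119 and 134 CPM in KO. The naive HP1g libraries were all at 255 to 322 CPM. The high and the low HP1a libraries thus divided by replicate number and not by genotype, and the highest naive level was 2.96 times the lowest.

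Ppp1r15a, which encodes the phosphatase subunit GADD34 that reverses eIF2α phosphorylation, divided in the same way. It was at 1711 and 1669 CPM in the replicate 1 libraries of naive HP1a WT and KO, at 468 to 536 CPM in the other 4 naive HP1a libraries, and at 1551 to 1951 CPM in naive HP1g libraries. Atf3, a stress-induced factor downstream of ATF4, was at 1.81 and 2.23 CPM in the same replicate 1 libraries and at most 0.0559 CPM in the other 4. The summed level of 10 heat shock and immediate early genes was 9033 and 8665 CPM in the replicate 1 libraries and 3860 to 4719 CPM in the other 4. Both genes and this list were picked for description with their values known, and the part of cell handling in the levels was not tested.

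**Figure D2:**
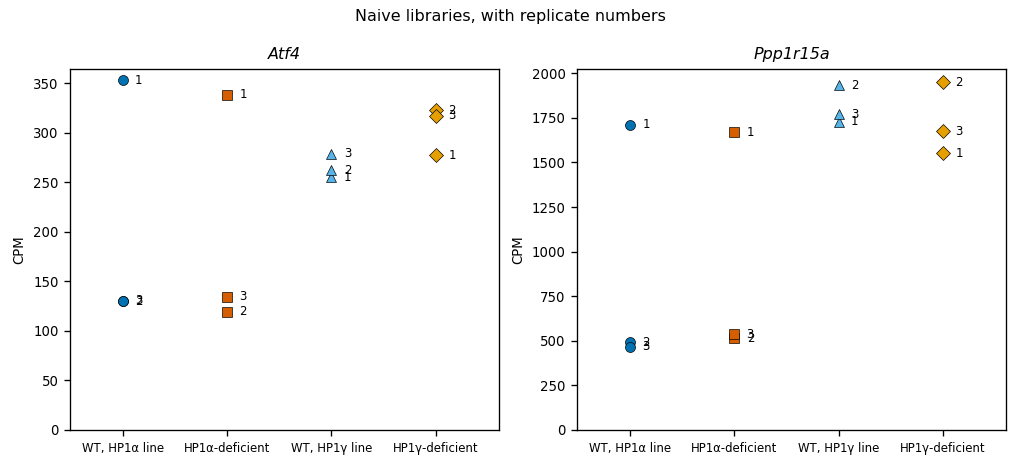
Level in CPM of Atf4 (left) and Ppp1r15a (right) in the 12 naive libraries, with the replicate number beside each point and line and genotype along the x axis. In the HP1a line, replicate 1 of both genotypes lies at 338 CPM or more for Atf4 and at 1669 CPM or more for Ppp1r15a, and replicates 2 and 3 at no more than 134 and 536 CPM.

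Ddit3, which encodes the stress-induced factor CHOP, was at 13 to 22.5 CPM in naive libraries (median 15.8) and 10.1 to 17.0 CPM in Tconv (median 13.9). Its log2 fold changes were between -0.45 and -0.09, lower in all 4 genotypes but with no adjusted p under 0.119. In the HP1a line the groups did not overlap, and Tconv were lower in WT (log2 fold change -0.21, adjusted p = 0.237) and KO (log2 fold change -0.45, adjusted p = 0.119) without passing the test. Atf5, another factor translated under stress, held 5 to 54 counts per library, or 0.124 to 1.06 CPM. Chac1, a glutathione-degrading enzyme induced by ATF4, held 0 counts in 16 of the 35 libraries, and 3 counts correspond to 0.0446 to 0.0816 CPM. Its highest value was 26 counts in replicate 2 of HP1a WT Tconv exposed to Treg, where it was at 0 in replicates 1 and 3, and it passed the filter in no comparison.

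Serine is made from a glycolytic intermediate by Phgdh, Psat1 and a phosphatase. Psat1 was at 24.2, 23.6 and 22.5 CPM in naive HP1a WT cells and at 32.7, 47.8 and 27.9 CPM in Tconv (log2 fold change 0.63, SE 0.19, adjusted p = 0.0246). HP1a KO cells went from 24.4, 24.0 and 24.8 CPM to 33.9, 50.2 and 50.2 CPM (log2 fold change 0.89, SE 0.16, adjusted p = 0.00382). Psat1 thus rose in both genotypes of the HP1a line by less than the fold threshold. In HP1a WT, Psat1 did not pass by adjusted p in 3 of 6 fits that left out a library, and in HP1a KO in 0 of 6. In HP1g KO cells it went from 23.1, 25.8 and 20.8 CPM to 22.4, 59.9 and 61.1 CPM, and replicate 1 overlapped the naive libraries (log2 fold change 1.07, SE 0.37, adjusted p = 0.0604, and 0.00226 in DESeq2). Without that library the log2 fold change was 1.40 (adjusted p = 1.17e-07). That library was singled out by its own Psat1 value, so this adjusted p cannot decide whether Psat1 rose. In the other 5 of 6 fits that left out a library, Psat1 did not pass by adjusted p. Among the 4 genotypes the lowest Psat1 change was in HP1g WT, at 0.35 (adjusted p = 0.249). Phgdh, the first enzyme of the route, was at 89.9 to 138.5 CPM in naive libraries and 61.3 to 128 CPM in Tconv, with log2 fold changes of -0.35 to 0.16 (lowest adjusted p = 0.133). The value of -0.35 was in HP1g WT, where the groups did not overlap.

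Shmt2 and Mthfd2 act in turn in the mitochondrial folate pathway, the former splitting serine into glycine and a one-carbon unit and the latter oxidising the folate that carries it. Shmt2 was at 80.2, 81.5 and 75.3 CPM in naive HP1a WT cells and at 62.0, 65.1 and 58.5 CPM in Tconv (log2 fold change -0.34, SE 0.09, adjusted p = 0.0116). HP1g WT cells went from 87.4, 84.8 and 86.9 CPM to 60.0, 58.1 and 66.5 CPM (log2 fold change -0.49, SE 0.14, adjusted p = 0.0282). In HP1g WT the adjusted p was 0.105 with replicate number as a block and over 0.05 in 5 of 6 fits that left out a library, and in HP1a WT it was 0.0678 with all libraries of the line in 1 fit. HP1g KO cells went from 76.2, 83.7 and 72.6 CPM to 50.5, 58.9 and 56.04 CPM (log2 fold change -0.46, SE 0.10, adjusted p = 0.00585). These falls were under the fold threshold, and in HP1a KO cells, where the groups also did not overlap, Shmt2 had a log2 fold change of -0.27 and an adjusted p of 0.0608. Mthfd2 passed the test by adjusted p alone in HP1a KO cells, going from 55.8, 70.3 and 68.7 CPM to 87.8, 77.9 and 80.3 CPM (log2 fold change 0.35, SE 0.10, adjusted p = 0.0274). It did so in HP1g KO cells as well, going from 66.1, 74.7 and 57.9 CPM to 71.8, 98.4 and 91.2 CPM (log2 fold change 0.42, SE 0.14, adjusted p = 0.0393), with groups that overlapped. In both, 5 of 6 fits that left out a library had an adjusted p over 0.05, and with all libraries of the line in 1 fit it was 0.17 in HP1a KO and 0.0657 in HP1g KO. In WT cells its log2 fold changes lay between -0.03 and 0.15.

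**Figure D3:**
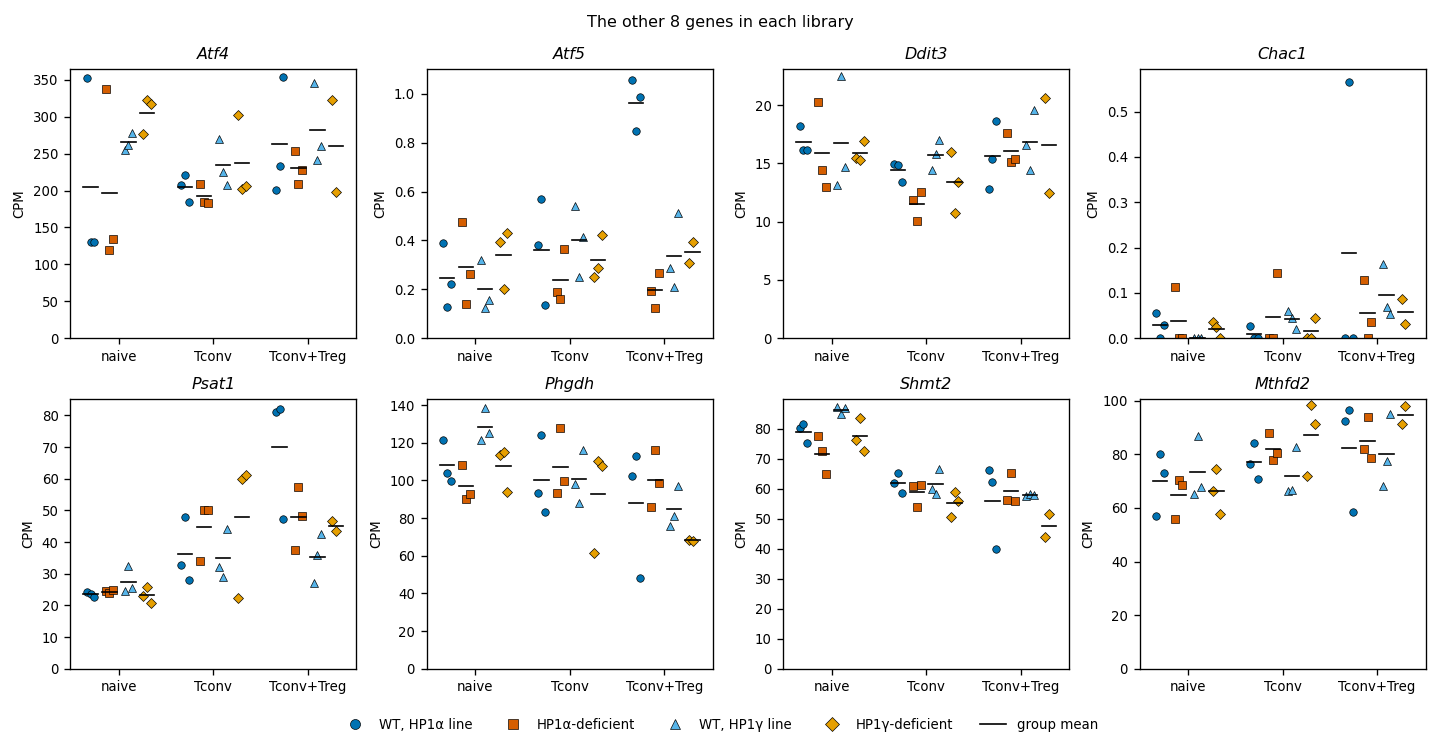
Level in CPM of the other 8 genes in each of the 35 libraries, by condition along the x axis, with colour and shape for line and genotype and a bar for the group mean; each panel has its own linear axis starting at 0. Psat1 lies at 20.8 to 32.5 CPM in naive and 22.4 to 82.0 CPM in grafted libraries, Shmt2 at 64.9 to 87.4 and 39.8 to 66.5 CPM, and Atf5 and Chac1 stay at or under 1.06 CPM.

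Other genes of the pathway were read from lists, each with the median log2 fold change of its tested members beside that of all genes, which lay between -0.04 and 0.02. Of 14 tested partners and targets of ATF4 and CHOP, 3 to 5 were called higher and 0 to 2 lower per genotype (medians 0.21 to 0.54), where 12.4% to 15.7% of all genes were called higher and 7.24% to 10.2% lower. Ero1a, an ER oxidase, rose in all 4, from a mean of 54.5 ± 11.1 to 210.5 ± 23.7 CPM in HP1a WT (SD, n = 3, log2 fold change 1.96, adjusted p = 3.26e-05) and least in HP1g KO (1.18, adjusted p = 0.000185). Atf3 rose in 3 of 4 genotypes, from 0.966 ± 0.332 to 122 ± 84.2 CPM in HP1g WT (SD, n = 3, log2 fold change 6.96, adjusted p = 0.000263), and had an adjusted p of 0.0501 in HP1a WT. Eif4ebp1, an inhibitor of cap-dependent translation, rose in HP1a WT (1.36) and HP1a KO (1.39), and Sesn2, a leucine sensor, in HP1g WT (1.22). Pck2, a mitochondrial enzyme of gluconeogenesis, fell in HP1a WT from 22.98 to 10.5 CPM, and Ndrg1 fell in HP1g KO from 21.0 to 9.10 CPM.

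Among the kinases and feedback genes of the response, 1 of 9 was called, Eif2ak2 (the kinase PKR), in HP1g KO (log2 fold change 1.03, adjusted p = 0.000519), with list medians of 0.12 to 0.19. Of 20 aminoacyl-tRNA synthetases 1 was called, Vars1 in HP1g WT (log2 fold change 1.21, adjusted p = 0.0237), and their medians were -0.08 to 0.05. Both lists stood beside 12.4% to 15.7% of all genes called higher per genotype. The amino acid transporters and proline enzymes linked to ATF4 had 1 to 5 members called lower per genotype of 10 to 12 tested. Of all genes, 7.24% to 10.2% were called lower. The summed level of the list had a median of 1111 CPM in naive libraries and 1221 CPM in Tconv. Slc7a5 was the only list member called lower whose mean over the libraries compared reached 5 CPM. This large neutral amino acid transporter went from 51.9 to 23.2 CPM in HP1a WT (log2 fold change -1.15, adjusted p = 0.00332). In HP1g WT Slc7a5 was instead at a mean of 35.5 CPM in naive cells and 48.6 CPM in Tconv (0.45, adjusted p = 0.366). Slc3a2, its partner chain, was called higher in HP1g WT (1.07, adjusted p = 0.0155). The medians of this list were -0.47 to 0.37.

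The other serine and folate enzymes had 2 to 3 members called higher and 1 to 2 lower of 19 or 20 tested per genotype (medians -0.38 to -0.17). Of all genes, 12.4% to 15.7% were called higher and 7.24% to 10.2% lower, so the list was close to these shares. Tyms, which makes thymidylate from a folate one-carbon unit, rose in all 4 genotypes, by log2 fold changes of 2.34 to 3.15, and from 6.28 ± 1.72 to 38.4 ± 8.62 CPM in HP1a WT (SD, n = 3, adjusted p = 6.52e-05). Ahcy, of the methionine cycle, was called higher in HP1a WT (1.13). No gene of the 12 of purine synthesis was called (medians -0.47 to -0.17). Of 10 proliferation genes 7 or 8 were called higher (medians 4.87 to 6.48).

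The ER arms that run beside the eIF2α arm had 3 to 5 of 16 genes called higher and 0 lower (medians 0.30 to 0.81), beside the same 12.4% to 15.7% of all genes called higher. Atf6, a sensor of unfolded protein, went from 6.10 ± 0.253 to 43.2 ± 6.57 CPM in HP1a WT (SD, n = 3, log2 fold change 2.83, adjusted p = 3.01e-06) and rose most in HP1g KO (3.57, adjusted p = 7.21e-07). Ern1, the sensor IRE1α, and Sdf2l1, an ER chaperone component, rose in all 4 genotypes as well, Ern1 by 2.13 to 3.32 and Sdf2l1 by 1.25 to 2.23 on the log2 scale. Of 9 mitochondrial proteases and chaperones 1 was called, Hspe1, lower in HP1g WT (-1.61, adjusted p = 0.0249) and HP1g KO (-1.09, adjusted p = 4.39e-05). Of all genes, 8.55% were called lower in HP1g WT and 7.3% in HP1g KO. Hspe1 was uneven in naive HP1g WT cells, at 174.6 ± 118.1 CPM (SD, n = 3). Replicate 2 of this group stood apart in Sdf2l1 (38.9 CPM against 16.8 and 16.4 CPM). It did so in Slc7a5 as well (21.5 CPM against 38.2 and 46.9 CPM). The part of this library in the HP1g WT calls was not tested.

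**Figure D4:**
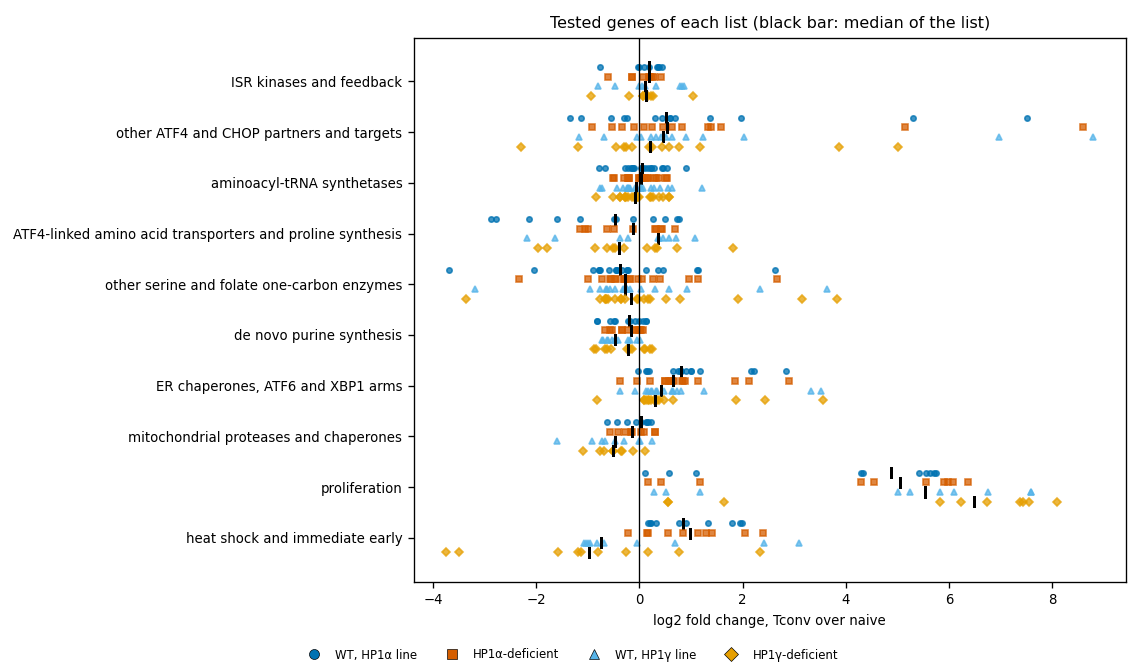
Log2 fold change of each tested gene of 10 lists from naive cells to Tconv (x axis), by list along the y axis, with colour and shape for line and genotype and a black bar for the median of a list in 1 genotype. The proliferation list stands furthest to the right, with medians of 4.87 to 6.48, and the tRNA synthetases and purine enzymes stay near or under 0, with medians of -0.47 to 0.05.

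The second comparison asked what exposure to Treg changed in Tconv. None of the 10 genes was called in any genotype, 0 of 35 tests, with 4 at an unadjusted p under 0.05, and DESeq2 called 1. Of all genes tested, 5.96% were called in HP1a WT, 0.44% in HP1a KO, 0.0126% in HP1g WT and 0% in HP1g KO, the last with 2 libraries on the Treg side. These shares are those of edgeR. In HP1a KO, where the member called by DESeq2 lay, DESeq2 called 443 of all genes against 71 by edgeR. In HP1g WT, where replicate numbers paired the libraries, 2 genes were called without and 0 with replicate number as a block. These comparisons use the Tconv libraries of the first as their controls.

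Asns was the call that DESeq2 made. In HP1a KO Tconv it was at 5.91, 7.87 and 7.49 CPM, and in HP1a KO Tconv exposed to Treg at 2.13, 4.13 and 3.06 CPM. The groups did not overlap, and the log2 fold change was -1.18 (SE 0.29, adjusted p = 0.116, and 0.00387 in DESeq2). In HP1a WT cells exposed to Treg it was at 7.69, 2.85 and 8.47 CPM, so 1 library stood as low as the KO libraries. The myeloid sum was 12.1 to 145 CPM in HP1a KO Tconv and 173 to 491 CPM after exposure to Treg, and its part in the Asns difference was not tested.

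Psat1 went from 32.7, 47.8 and 27.9 CPM in HP1a WT Tconv to 81.0, 82.0 and 47.3 CPM in HP1a WT Tconv exposed to Treg (log2 fold change 0.97, SE 0.28, adjusted p = 0.0843). The adjusted p was 0.0159 in DESeq2, 0.0365 with replicate number as a block and 0.00826 with all libraries of the line in 1 fit, each with a fold under the threshold. The library at 47.3 CPM, replicate 3, overlapped the Tconv without Treg. Without that library the log2 fold change was 1.17 and Psat1 was called (adjusted p = 0.0134). The library was singled out by its own Psat1 value, so this call cannot decide whether Treg changed Psat1. In the other 5 of 6 fits that left out a library, Psat1 did not pass by adjusted p. In the other 3 genotypes its log2 fold changes lay between -0.07 and 0.11, and the test of the difference between the WT cells of both lines gave -0.95 (HP1g minus HP1a, adjusted p = 0.234).

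Replicate 3 of HP1a WT Tconv exposed to Treg also stood apart in other genes. Among the 11 libraries exposed to Treg it had the highest Atf4 (353 CPM) and the lowest Trib3 (0.468 CPM, 18 counts), Phgdh (48.3 CPM), Shmt2 (39.8 CPM) and Mthfd2 (58.4 CPM). With all 3 replicates, Trib3 had a log2 fold change of -1.13 in HP1a WT (SE 0.63, adjusted p = 0.339), from 5.20, 4.68 and 4.27 CPM to 2.80, 3.16 and 0.468 CPM without overlap. Atf5 was at 0.381, 0.569 and 0.134 CPM in HP1a WT Tconv and at 1.06, 0.850 and 0.987 CPM after exposure to Treg (log2 fold change 1.42, SE 0.64, adjusted p = 0.24).

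The 2 factor genes were a little higher with Treg in all 4 genotypes without passing the test, Atf4 by 0.15 to 0.38 and Ddit3 by 0.10 to 0.49 on the log2 scale. In HP1a KO cells the groups did not overlap for Atf4 (log2 fold change 0.27, adjusted p = 0.242) or Ddit3 (log2 fold change 0.49, adjusted p = 0.179). Phgdh lay between -0.43 and -0.08, Shmt2 between -0.19 and 0.02 and Mthfd2 between 0.06 and 0.16. In HP1a WT, where 2.43% of all genes were called lower and 3.54% higher with Treg, pathway genes outside the 10 that were called lower included Ero1a (210.5 ± 23.7 to 49.3 ± 18.3 CPM, SD, n = 3, adjusted p = 0.0074), Bbc3, a pro-apoptotic CHOP target (31.6 ± 8.30 to 9.90 ± 1.70 CPM, SD, n = 3, adjusted p = 0.00949), Ndrg1 (-1.66, adjusted p = 0.0177) and Ern1 (-1.36, adjusted p = 0.0108). These are 3 of 15 tested partners and targets and 1 of 16 genes of the ER arms, with list medians of -0.18 and -0.29. Of 20 other serine and folate enzymes 1 was called higher and 0 lower, with a median of -0.01. None of the 9 kinases and feedback genes was called, with a median of -0.56, against 0.04 for all genes. Myc, a driver of amino acid and nucleotide synthesis in T cells, was lower as well (126 ± 11.3 to 43.2 ± 16.5 CPM, SD, n = 3, adjusted p = 0.0211). Replicate 3 exposed to Treg stood apart here too, with Myc at 24.5 CPM against 55.9 and 49.1 CPM. The feedback gene Ppp1r15a was at 254 CPM in it, against 584 and 805 CPM in replicates 1 and 2. The part of this library in the list medians was not tested. The Bbc3 effect differed between the WT cells of both lines (1.58, adjusted p = 0.0472).

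The third comparison set KO against WT cells under each condition. None of the 10 genes was called in either line, 0 of 52 tests, with 3 at an unadjusted p under 0.05, and DESeq2 called 1. Of all genes tested, 0% were called in naive, 0.103% in Tconv and 0.123% in Tconv exposed to Treg of the HP1a line, and 0.00669%, 0.0437% and 0% in the HP1g line. These shares are those of edgeR. DESeq2 called 713 genes in HP1a cells exposed to Treg, where edgeR called 20. In HP1g cells exposed to Treg DESeq2 called 628, where edgeR called 0. In naive HP1a cells, where replicate numbers paired the libraries, 12 genes were called with the block, none of them among the 10. In HP1g cells exposed to Treg, with 2 pairs of libraries, 30 were called with the block, again none of the 10. The log2 fold changes of 50 of the 52 tests were under 1 in size. Asns could not be tested in naive cells because of its low counts.

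Atf5 was the call that DESeq2 made, in HP1a cells exposed to Treg. It held 54, 39 and 38 counts in WT (1.06, 0.850 and 0.987 CPM) and 9, 5 and 15 counts in KO (0.194, 0.124 and 0.267 CPM). The WT libraries were the 3 highest of all 35, and the log2 fold change was -2.30 (SE 0.65, adjusted p = 0.227, and 0.0184 in DESeq2). With all libraries of the line in 1 fit the adjusted p was 0.0435. In the same comparison Asns was at 7.69, 2.85 and 8.47 CPM in WT and 2.13, 4.13 and 3.06 CPM in KO, with overlap (log2 fold change -1.05, 95% interval reaching down to -2.22).

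Groups without overlap also occurred for Ddit3 in HP1a Tconv, at 11.9, 12.5 and 10.1 CPM in KO against 13.4 to 15.0 CPM in WT (log2 fold change -0.32, adjusted p = 0.556). Trib3 in naive HP1g cells was at 13.9 to 17.0 CPM in KO and 8.82 to 12.8 CPM in WT (log2 fold change 0.48, adjusted p = 0.63). Phgdh (-0.24) and Shmt2 (-0.14) were lower in the same KO cells (adjusted p = 0.63 and 0.663). In HP1g cells exposed to Treg, with 2 KO libraries, Trib3 (-0.66), Phgdh (-0.30) and Shmt2 (-0.27) were lower and Psat1 (0.37) higher in KO without overlap, at adjusted p = 0.473 to 0.561. None of these passed the test. The share of all genes without overlap is not given, so a lack of overlap is described here and is no evidence about these genes.

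**Figure D5:**
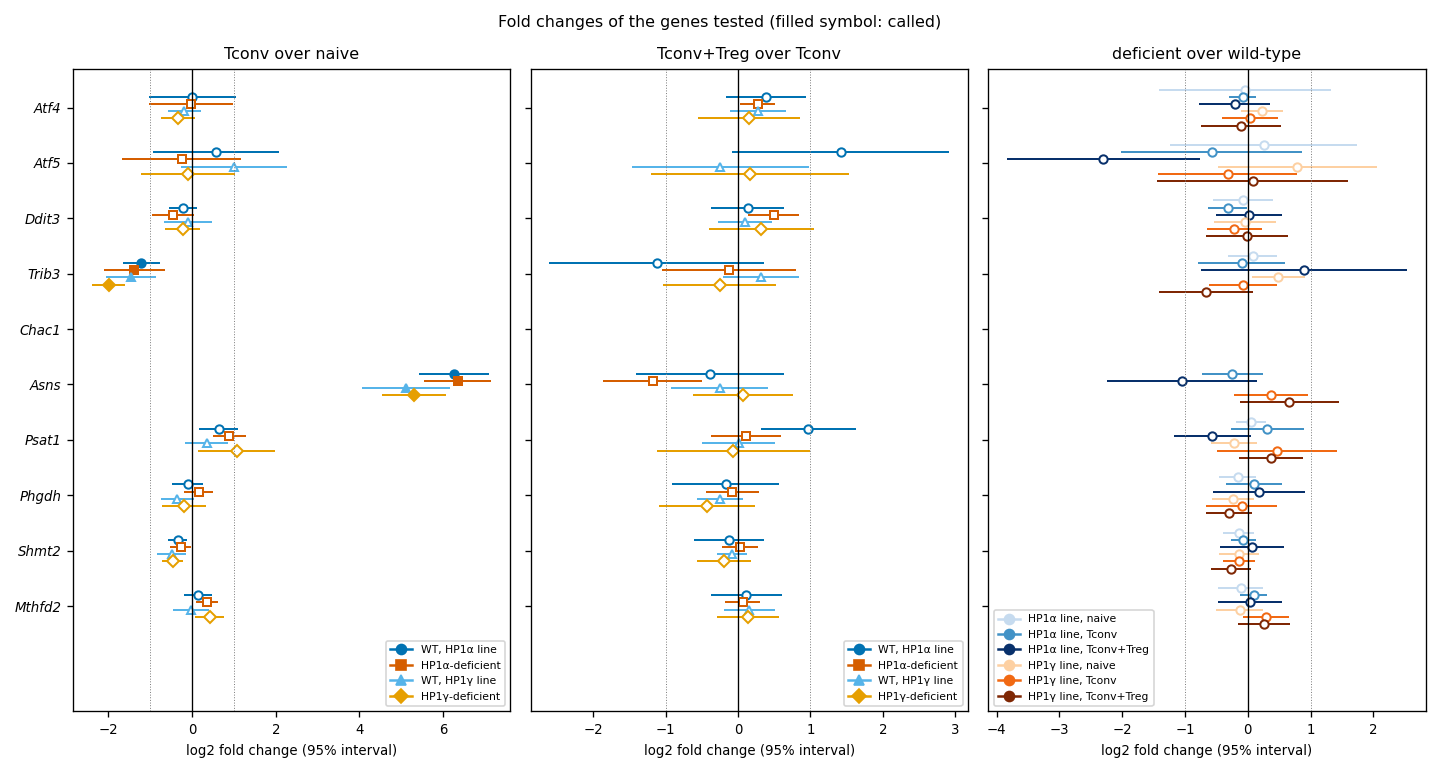
Log2 fold change with its 95% interval for each tested gene in Tconv over naive cells (left), Tconv exposed to Treg over Tconv (middle) and KO over WT (right), with a filled symbol where a gene was called and dotted lines at the fold threshold of 1. Filled symbols appear only for Asns (5.10 to 6.35) and Trib3 (-1.997 to -1.21) in the left panel; Chac1 was not tested.

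Tests of differences between effects asked whether genotype changed the response to Treg or to activation, and whether the Treg effect differed between the WT cells of both lines. None of the 10 genes was called, 0 of 45 tests, with 2 at an unadjusted p under 0.05 and 0 called by DESeq2, and the lowest adjusted p was 0.234. Of all genes tested, 0.139% (HP1a) and 0% (HP1g) were called for genotype by Treg, 0.00587% and 0.0235% for genotype by activation, and 1.56% for the difference between lines. For Asns these differences lay between -0.79 and 0.29 on the log2 scale, with intervals reaching from -1.98 to 1.37. For Trib3 they lay between -0.59 and 1.45, with intervals from -1.34 to 2.96.

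The mean pattern of the 10 genes, each centred and scaled on log2(CPM + 1), was set beside 9441 other genes whose mean level was 5 CPM or higher. Over all 35 libraries the highest Pearson correlations were with Pradc1 (0.638), Coq7, Meaf6, Prkcsh, Psmc3, Tubb4b, Anp32b and Katna1 (0.591). Over the 23 grafted libraries alone they were with Shmt1 (0.799), the cytosolic counterpart of Shmt2, Mthfd1l (0.757), a mitochondrial folate enzyme, Prelid3b (0.757), E2f6, Cenpc1, Smarcal1, Mtbp and Eya3 (0.703). Asns alone, taken after its values were seen, had among its closest genes over 35 libraries Pik3ap1 (0.974), Entpd1, Ryk, Bspry, Gzmb, Car5b and Adam9 (0.965). Over the 23 grafted libraries the highest was again Pik3ap1 (0.719). Trib3 alone was closest over 35 libraries to Sec63 (0.938), Hsdl1, Ppp1r13b, Ndrg3, Eefsec, Crlf3, Dgka and Foxo1 (0.921). Over the 23 grafted libraries the closest to Trib3 were Pigo (0.904) and Cc2d1b (0.896). Among grafted libraries, replicates 1 and 2 of HP1a WT Tconv exposed to Treg had the highest Shmt1 (14.4 and 20.7 CPM) and Mthfd1l (45.7 and 48.9 CPM). Psat1 was highest there too (81.0 and 82.0 CPM). Each of the 10 genes, Chac1 and Atf5 included, counted equally in the mean pattern. The weight of these libraries and genes in the correlations was not tested. All these correlations describe libraries that share condition and preparation.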

How the data were processed

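RNA-seq was performed by the authors on amplified polyadenylated RNA (SMART-Seq, paired-end). The submitters' processing notes and methods name STAR, Salmon and GRCm39. The values deposited by the authors are Salmon estimated counts per gene, neither scaled nor filtered, of which 84.4% were whole within 0.001, since reads shared between genes are divided. They were rounded before testing. Columns were matched to samples by title. Total counts were 37029519 to 63042245 per library, and limits from 3 counts cover counting error only. No 2 libraries of a group were identical.

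CPM used TMM factors over the 35 libraries. Tests were edgeR 4.0.16 (R 4.3.3) quasi-likelihood tests with robust estimation, TMM and filterByExpr on the groups compared, with Benjamini-Hochberg adjustment over all genes tested. The scripts were tested on simulated data. Alternatives were DESeq2 1.42.0, RLE factors, no filter, no fold threshold, all libraries of the line, a block for replicate number, inclusion of the left-out library and omission of each replicate in turn. Named genes were the 10 members, up to 3 called genes of a list per comparison whose mean level reached 5 CPM, and the 8 most alike in pattern, of which some genes are not reported here. For a member, fold and test are given where the adjusted p was under 0.05 in edgeR or DESeq2 or the groups did not overlap, and other folds as ranges. A lack of overlap was a rule for printing and not a test, and its share among all genes is not given. The members and lists were chosen with earlier results of these data known. Equal replicate numbers went with correlated deviations, over 0.1 in all of 3 pairs, in 2 of 19 comparisons. These were naive HP1a KO against WT (0.496 to 0.828) and the Treg effect in HP1g WT cells (0.153 to 0.457). In both the block changed no call among the 10 genes. KO against WT in HP1g cells exposed to Treg had only 2 pairs, also over 0.1 (0.223 to 0.453), and was not counted as paired. With the block 30 genes were called there, none among the 10.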

Additional observations from a re-analysis of the deposited data

Results flagged for a closer look

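Replicate 3 of HP1g KO Tconv exposed to Treg was left out of every comparison above, since the methods of the study exclude it for abnormal base composition, exonic share and bias along transcripts. It held 36961946 counts over 18658 genes, and its median correlation with the other libraries of its group was 0.616, against 0.94 to 0.995 for the libraries used. Its TMM factor was 0.389, which raises its CPM. With all 36 libraries scaled together, 4 of the 10 genes lay above every HP1g WT Tconv library exposed to Treg in it. Asns was at 450.6 CPM (6476 counts), 61.0 times the highest WT library (7.39 CPM). Psat1 was at 278.5 CPM (4002 counts) against at most 41.2 CPM. Shmt2 was at 74.7 CPM against at most 56.4 CPM, and Atf5 at 0.626 CPM (9 counts) against at most 0.495 CPM. The other 6 genes did not exceed the WT libraries. Mthfd2 (5.85 CPM), Phgdh (18.1 CPM), Atf4 (52.3 CPM), Ddit3 (7.52 CPM) and Trib3 (0.557 CPM) were below all of them, and Chac1 held 1 count. By library total alone, a scaling added after seeing the data, Asns (175 CPM, 23.5 times the highest WT library) and Psat1 (108 CPM, 2.55 times) remained above the WT libraries, whereas Shmt2 (29.1 CPM) was below all of them and Atf5 (0.243 CPM) did not exceed them. This is 1 library, and whether its values reflect the cells or its preparation was not tested. The share of all genes that lay above or below every WT library in it is not given. The positions of the 10 genes are therefore described here and are no evidence about these genes.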

How the results depend on the processing

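Of 117 fits with another tool, scaling, filter, threshold or set of samples, 110 kept the number of called members within 1.5 times that reported, as did 140 of 141 fits that left out 1 replicate. DESeq2 called 1 member instead of 0 for KO against WT in HP1a cells exposed to Treg (Atf5) and 1 for the Treg effect in HP1a KO (Asns), and all libraries of the line in 1 fit called 1 in the former. From naive cells to Tconv, the absence of a fold threshold gave 4 members in HP1a WT, 4 in HP1a KO and 4 in HP1g KO in place of 2, by its construction, and all libraries of the line gave 1 in HP1a WT, where Trib3 was lost. The cause of the other changes was not tested. Leaving out 1 replicate gave 0 to 1 members for the Treg effect in HP1a WT (Psat1, without replicate 3 exposed to Treg), 2 to 3 from naive cells to Tconv in HP1a KO (Psat1 at 1.06, without Tconv replicate 1) and in HP1g KO (Psat1 at 1.40, without Tconv replicate 1), 2 in the WT genotypes and 0 elsewhere. Including the left-out library turned Shmt2 in HP1g cells exposed to Treg from -0.267 to 0.057 and moved Psat1 there from 0.368 to 1.942 (adjusted p = 0.644). With the replicate number as a block, 2 members were called in each genotype from naive cells to Tconv and 0 in all other comparisons. Over all genes, DESeq2 called more than edgeR, 15 to 713 against 0 to 20 for KO against WT, 57 to 1754 against 0 to 932 for Treg and 15 to 823 against 0 to 267 for the differences between effects. RLE factors moved the median of all genes by at most 0.03 on the log2 scale and turned no member. Counts of 3 to 14 for Asns in naive cells, 5 to 54 for Atf5 and 0 to 26 for Chac1 limit what can be said of these genes.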
